A study of Mus musculus with 6 samples.

Results

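Glucose transporters and the insulin signalling chain were examined in mouse soleus by taking 8 genes: the transporters Slc2a4 and Slc2a1, the insulin receptor Insr, its substrate Irs1, the PI3-kinase subunit Pik3r1 and the kinases Akt1, Akt2 and Gsk3b. A probe set, the group of oligonucleotides that reads 1 transcript on the array, was included if the array annotation gave it exactly 1 gene symbol and that symbol was one of these. The rule found 8 probe sets for 7 of the genes among 12488 probe sets in all, with 2 for Slc2a4 and 1 for each of the others, and none for Gsk3b, which was not analysed here. Soleus total RNA came from 3 samples of male BERKO mice, which lack estrogen receptor beta (ERbKO, strain not given), and 3 samples of male wild-type C57BL/6 mice (WT), with 1 array per sample. Ages, the knockout allele and whether each sample was 1 animal are not given in the sources used here, so any p-value reflects only how far these samples spread, which may be technical. Soleus is a postural muscle that holds slow, oxidative fibres beside fast ones.

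Insulin binding switches on the kinase activity of its receptor, which phosphorylates the IRS proteins, and these recruit PI3-kinase and through it AKT. In muscle, AKT releases vesicles that carry GLUT4, the product of Slc2a4, to the cell surface, and it inhibits GSK3, which lifts the brake on glycogen synthase. Much of this control lies in phosphorylation and vesicle movement, which transcript levels do not show. Estrogen receptors in muscle have been reported to bear on Slc2a4 expression and insulin action, and that is the question these genes put to the comparison of knockout and wild type.

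All 8 slow fibre markers on the array read above the filter level described below on at least 3 arrays, among them the slow myosin heavy chain Myh7 (means of 8653 in ERbKO and 8238 in WT). The summed level of those markers was 61700 to 70420 in ERbKO and 50420 to 64740 in WT. The 10 fast fibre markers summed to 27750 to 29290 in ERbKO and 25130 to 30480 in WT, and their members differed in direction. Of these markers 9 read above the filter level on at least 3 arrays. The exception was the myosin heavy chain Myh2, which read 2.2 to 15.1 in ERbKO and 5.8 to 23.4 in WT. Myh4, the fastest myosin heavy chain, had means of 358.5 in ERbKO and 1927 in WT and Actn3 had 225.3 in ERbKO and 583.8 in WT, both with overlap. Tnnt3 (means of 7154 in ERbKO and 6044 in WT), Tnni2 and Atp2a1 were higher in ERbKO without overlap, and the limma adjusted p was 0.923 for each of these 5 genes. The slow marker Myl3 was also higher without overlap (means of 8916 in ERbKO and 7688 in WT, limma adjusted p = 0.923). Groups did not overlap for 10.7% of all probe sets tested. These genes were singled out after their values were seen, and the part of fibre type in the readings of the transporters and kinases was not tested. The targeted gene could not check the labels, because Esr2 read 3.9 to 8.4 in ERbKO and 1.3 to 3.2 in WT, near or below the floor of 7.8 under which values were not distinguished. Correlations between arrays were 0.948 to 0.966. ERbKO replicate 2 carried 65.2% of the first principal component, which held 27.0% of the variance. WT replicate 2 carried 74.8% of the second, which held 23.8%. The 2 arrays thus led different components, and their deviations from their group means correlated at 0.035. These 2 arrays share a sample title prefix that the other 4 do not have, so results are also given for the 4 arrays alone.

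None of the 3 genes that could be tested, Slc2a4, Akt1 and Akt2, passed the test for a difference between the groups. They were read clearly on all 6 arrays, and each had a slightly higher mean in ERbKO, by about 1.12-fold for Slc2a4, with ranges that overlapped. Slc2a1, Insr, Irs1, Pik3r1 and the other Slc2a4 probe set read below the filter level on every array. Of the 8 probe sets 3 passed the filter, which asked for a reading over 39.4, the median over all arrays, in 3 or more arrays of any group. In limma's moderated test 0 of these 3 passed an adjusted p of 0.05, where 0.0% of the 6369 probe sets tested did. At an unadjusted p under 0.05 there were 0 of 3, against 5.24% of all probe sets.

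Slc2a4 encodes GLUT4, the insulin- and contraction-responsive glucose transporter of muscle and fat. Its brighter probe set read 1268.8, 1130.7 and 1532.7 in ERbKO, against 1138.8, 1016.4 and 1361.6 in WT. The highest array was an ERbKO one and the lowest a WT one, but 2 of the 3 ERbKO values lay within the WT range. The means were 1311 ± 204 in ERbKO and 1172 ± 175 in WT (SD, n = 3 each). On the log2 scale the difference, ERbKO minus WT, was 0.16 ± 0.14 (SE; limma, adjusted p = 0.958), and its 95% interval ran from 0.892-fold to 1.40-fold. The difference was 0.10 after quantile normalization, 0.075 after cyclic loess and 0.23 with arrays scaled to a common median. Over the 4 arrays that share a title prefix it was 0.16, and leaving out single arrays gave 0.042 to 0.27. Across probe sets the median difference also went with brightness, from -0.081 in the dimmest of 5 equal groups to 0.054 in the brightest, which holds Slc2a4 and Akt2. The part of this trend in the Slc2a4 difference was not tested.

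The dimmer Slc2a4 probe set read 20.4, 25.2 and 21.4 in ERbKO and 21.5, 25 and 21 in WT. These readings lay between the floor and the filter level, and their log2 difference was -0.01, or 0.05 after quantile normalization. They did not follow the bright probe set from array to array. What this probe set measures was not tested, and the account of Slc2a4 rests on the brighter one.

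Slc2a1 encodes GLUT1, the basal glucose transporter, which is low in adult muscle fibres and high in human red cells and in endothelium of some tissues. It read 10.1, 26.2 and 39.3 in ERbKO and 18.2, 36.9 and 29.3 in WT. The lowest and the highest of the 6 values were both ERbKO arrays, and the log2 difference was -0.31, or 0.25 without ERbKO replicate 1. The coefficient of variation over the 6 arrays was 41.7%, the largest among the 8 probe sets. In a bulk sample, fewer cells of a type and less RNA per cell cannot be told apart. The red cell markers, 4 on the array, summed to 2122 to 2390 in ERbKO and 1737 to 4730 in WT, and the 9 endothelial markers to 1424 to 1485 in ERbKO and 1375 to 1562 in WT. Both sums overlapped, and their part in the Slc2a1 readings was not tested.

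**Figure D1:**
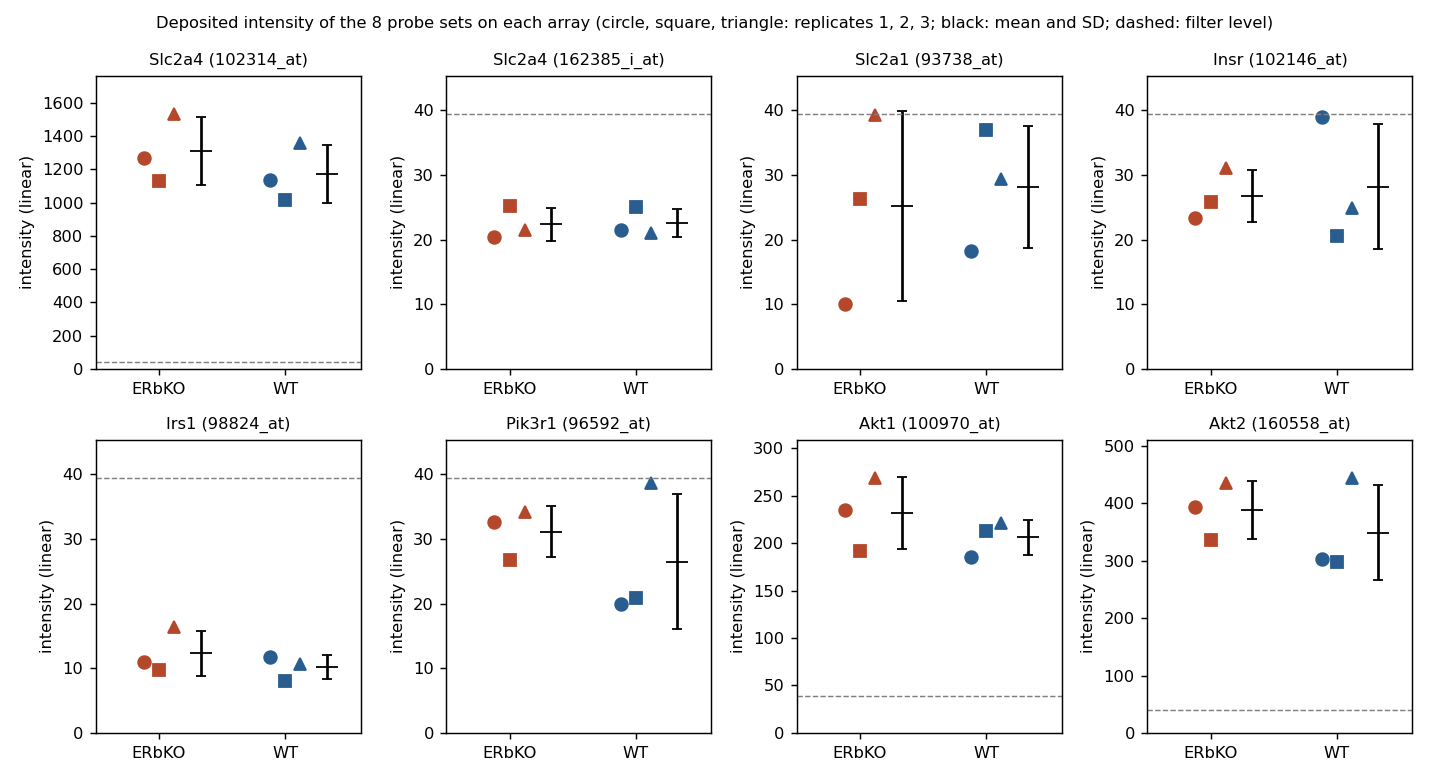
Deposited intensity (linear scale, axis from 0) of the 8 probe sets in ERbKO (left) and WT (right), with 1 point per array, the marker shape giving the replicate, and black bars giving the mean and SD (n = 3). The brighter Slc2a4 probe set, Akt1 and Akt2 lie far above the dashed filter level of 39.4, the other 5 probe sets lie below it, and the groups overlap in every panel.

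At the head of the signalling chain the readings were dim. Insr, the insulin receptor, read 23.3, 25.8 and 31.1 in ERbKO and 39.0, 20.5 and 24.9 in WT, so that the WT values spanned the whole ERbKO range. Irs1, the docking protein that the receptor phosphorylates, read 10.9, 9.7 and 16.3 in ERbKO and 11.8, 8.1 and 10.6 in WT, just above the floor of 7.8. Pik3r1, the p85 alpha regulatory subunit of PI3-kinase, read 32.6, 26.7 and 34.1 in ERbKO and 20, 20.9 and 38.6 in WT. All 3 ERbKO values of Pik3r1 exceeded 2 of the WT values, but the highest reading of all came from WT. None of these 3 genes was tested, because none exceeded the filter level on any array. The log2 differences were -0.03 for Insr, 0.26 for Irs1 and 0.29 for Pik3r1. With the filter lifted, their 95% intervals ran from 0.57-fold to 1.68-fold for Insr, from 0.755-fold to 1.89-fold for Irs1 and from 0.687-fold to 2.19-fold for Pik3r1. Single arrays carried these differences. The one for Insr ran from -0.23 without WT replicate 2 to 0.23 without WT replicate 1, and it was 0.04 after quantile normalization and 0.06 after cyclic loess. For Irs1 it ran from 0.03 without ERbKO replicate 3 to 0.41 without ERbKO replicate 2, and for Pik3r1 from 0.12 without WT replicate 1 to 0.60 without WT replicate 3.

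Akt1, the broadly expressed AKT isoform with a main part in growth, read 234.7, 192.0 and 268.6 in ERbKO and 185.1, 212.4 and 220.8 in WT. The 2 highest arrays were ERbKO, while ERbKO replicate 2 lay within the WT range. The log2 difference was 0.16 ± 0.15 (SE; limma, adjusted p = 0.958), with a 95% interval of -0.19 to 0.51. It was 0.31 over the 4 arrays that share a title prefix, and 0.047 without ERbKO replicate 3 (adjusted p = 0.621 and 0.998).

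Akt2, the isoform most tied to insulin-stimulated glucose uptake, read 393.2, 336.6 and 436.3 in ERbKO and 303.8, 298.4 and 444.3 in WT. WT replicate 3 was the highest of the 6 arrays and the other 2 WT arrays the lowest, so the WT range enclosed all 3 ERbKO values. The log2 difference was 0.17 ± 0.18 (SE; limma, adjusted p = 0.958), with a 95% interval of -0.22 to 0.57. Without WT replicate 3 it was 0.36 and without WT replicate 2 it was 0.073 (adjusted p = 0.914 and 0.972). Akt1 and Akt2 are similar in sequence, and whether their probe sets read each other's transcript was not tested.

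The log2 differences of the 3 tested genes lay within 0.013 of each other. Across the 6 arrays, as a description, Slc2a4 correlated at r = 0.925 with Akt2 and at r = 0.773 with Akt1, and Akt1 with Akt2 at r = 0.753, and all points share the same arrays and their scaling. The tested gene whose values were most like those of Slc2a4 over these arrays was Pcyt2, of phosphatidylethanolamine synthesis (r = 0.995), followed by Dock5 (r = 0.992) and Cyhr1 (r = 0.988). For Akt1 it was Esrra, estrogen-related receptor alpha (r = 0.976), and for Akt2 it was Stom, the membrane protein stomatin (r = 0.986). Each of these genes was picked as the closest among the tested probe sets with exactly 1 symbol on the same 6 arrays, and no p is given. After cyclic loess the correlation of Dock5 with Slc2a4 was 0.869.

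**Figure D2:**
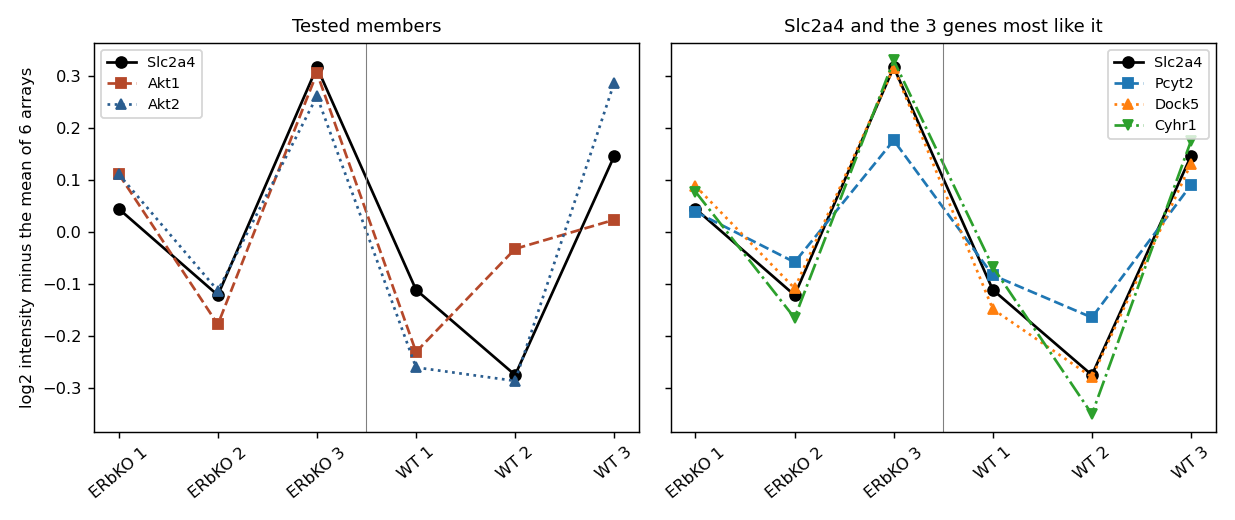
Log2 intensity minus the mean of the 6 arrays, by array, for the 3 tested genes (left panel) and for Slc2a4 with the 3 genes most like it (right panel), with ERbKO arrays left of WT arrays and lines that only join the points of a gene. All 3 tested genes peak on ERbKO replicate 3 or WT replicate 3, and Pcyt2, Dock5 and Cyhr1 track Slc2a4 at r = 0.988 or more.

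Because an estrogen receptor was removed, the promoter windows of these genes (RefSeq, GRCm38.p6, 250 bases before to 50 after the start) were read for the half-site of the estrogen response element, GGTCA or its complement TGACC on the other strand. Of the 8 genes 6 have a window in the table, with 11 windows in all, and Slc2a4 and Insr have none there. A half-site was found in 2 of the 11 windows, against 40.5% of the 32851 windows of all genes. The matches, shown with the half-site in capitals, lay in chr12:112674835-112675134 (minus strand) for Akt1, at 237 and 139 bases before the start, and in chr4:119108495-119108794 (plus strand) for Slc2a1, at 101 bases before it.
Akt1, distal: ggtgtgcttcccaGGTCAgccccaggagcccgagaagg
Akt1, proximal: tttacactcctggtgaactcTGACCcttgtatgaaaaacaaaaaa
Slc2a1: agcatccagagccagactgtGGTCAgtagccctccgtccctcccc
A match is a run of letters, not a shown binding site, and the readings of Akt1 and Slc2a1 given above overlapped between the groups.

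The rest of the pathway was read from 6 lists of other genes, with 1 probe set per gene. Of 133 genes 92 were on the array and 71 were tested. None passed the adjusted threshold (lowest adjusted p = 0.923), 6 (8.45%) had an unadjusted p under 0.05, against 5.24% of all probe sets, and 11 (15.5%) had groups that did not overlap, against 10.7% of all probe sets tested. A higher mean in ERbKO was seen for 42 (59.2%), against 46.8% of all probe sets tested. The median log2 difference of the 71 genes was 0.03, beside -0.02 for all probe sets. The values of the 71 genes use the tested probe set of highest mean per gene, and those beside them all probe sets. The part of the brightness trend given above in these contrasts was not tested. The genes named in the next paragraphs are those with the smallest p in each list.

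Between the receptor and AKT, 4 of 8 tested genes were higher and 4 lower in ERbKO, with a median of -0.03. Grb2, the adaptor that links the receptor to the Ras pathway, read 167.3, 159.4 and 202.8 in ERbKO and 139.4, 129.1 and 166.2 in WT (log2 difference 0.28 ± 0.15, SE). Pik3ca, the p110 alpha catalytic subunit that binds the product of Pik3r1, stood at -0.44 ± 0.26, but its other probe set at -0.003. For the brighter of these the difference was -0.74 without ERbKO replicate 1 and -0.18 without ERbKO replicate 3. Pdpk1, the kinase that phosphorylates AKT, stood at -0.13, but an untested probe set of Pdpk1 stood at 0.29. Pik3r2, the p85 beta subunit, stood at 0.36 with an SE of 0.43. Shc1, singled out after its values were seen, was the gene of this list whose groups did not overlap (-0.12). In the list of AKT targets, which also holds protein kinase C genes, 8 of 13 tested genes were higher, with a median of 0.03. Gsk3a, the paralog of Gsk3b, given as its nearest relative and outside the naming rule, stood at 0.10 with groups that overlapped. Gys1, the muscle glycogen synthase that GSK3 inhibits, read 2561.7, 2290.5 and 2658.5 in ERbKO and 2280.3, 2121.6 and 2236.1 in WT, without overlap (0.18 ± 0.09, SE; limma, adjusted p = 0.926). The difference of Gys1 was 0.06 after quantile normalization and after cyclic loess. The kinases Prkcz, Rps6kb2 and Prkca stood at -0.44, 0.44 and 0.20, all with overlap. Over the 4 arrays that share a title prefix Prkcz stood at -0.04, Rps6kb2 at -0.04 and Prkca at 0.07, and an untested probe set of Prkcz stood at 0.49 over all 6 arrays.

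Among inhibitors of insulin signalling 4 of 7 tested genes were higher, with a median of 0.002. Socs3, which blocks cytokine and insulin receptors, read 71.3, 80.8 and 77.4 in ERbKO and 89.5, 101.6 and 105.1 in WT. These groups did not overlap (-0.37 ± 0.15, SE; limma, adjusted p = 0.923), while its other tested probe set overlapped (-0.23). The phosphatase 2A subunits Ppp2cb and Ppp2r1a stood at 0.18 and 0.11, and the lipid phosphatase Inppl1 at -0.06. Of the other sugar transporters and the enzymes after entry, 4 of 8 tested genes were higher, with a median of 0.001. Hk2, the hexokinase that traps glucose in muscle, read 1740.5, 1874.5 and 1854.9 in ERbKO and 1554.4, 1621.3 and 1587.9 in WT. All ERbKO values were above all WT values (0.20 ± 0.08, SE; limma, adjusted p = 0.923), and the difference was 0.12 after quantile normalization and 0.10 after cyclic loess. Glycogenin Gyg stood at -0.28, though its other probe set stood at 0.04, muscle phosphorylase Pygm at 0.07 and the branching enzyme Gbe1 at -0.12.

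Genes that move GLUT4 vesicles held the smallest p of the whole pathway. Rab4a, a GTPase of endosome recycling, read 157.6, 163.8 and 161.3 in ERbKO and 129.2, 111.4 and 104.8 in WT. The ERbKO arrays lay close together and above every WT array, with a ratio of 1.40 and a log2 difference of 0.49 ± 0.13 (SE; unadjusted p = 0.00525, limma adjusted p = 0.923). Tbc1d1, a Rab GTPase-activating protein that AKT and AMP-activated kinase phosphorylate in muscle, read 85.0, 100.3 and 85.1 in ERbKO and 71.8, 75.9 and 57.7 in WT. Its log2 difference was 0.40 ± 0.17 (SE; limma, adjusted p = 0.923), also without overlap. Of the 23 tested genes in this list 13 were higher, with a median of 0.02. Groups did not overlap for 2 of the 23 (8.7%), against 10.7% of all probe sets tested. An unadjusted p under 0.05 in limma was seen for 2 (8.7%), against 5.24% of all probe sets. Stx4a, the syntaxin at which GLUT4 vesicles fuse, stood at 0.21, and the motor Myo1c at -0.66 with an SE of 0.51. Myo1c ran from -1.20 without ERbKO replicate 1 to -0.12 without ERbKO replicate 3.

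**Figure D3:**
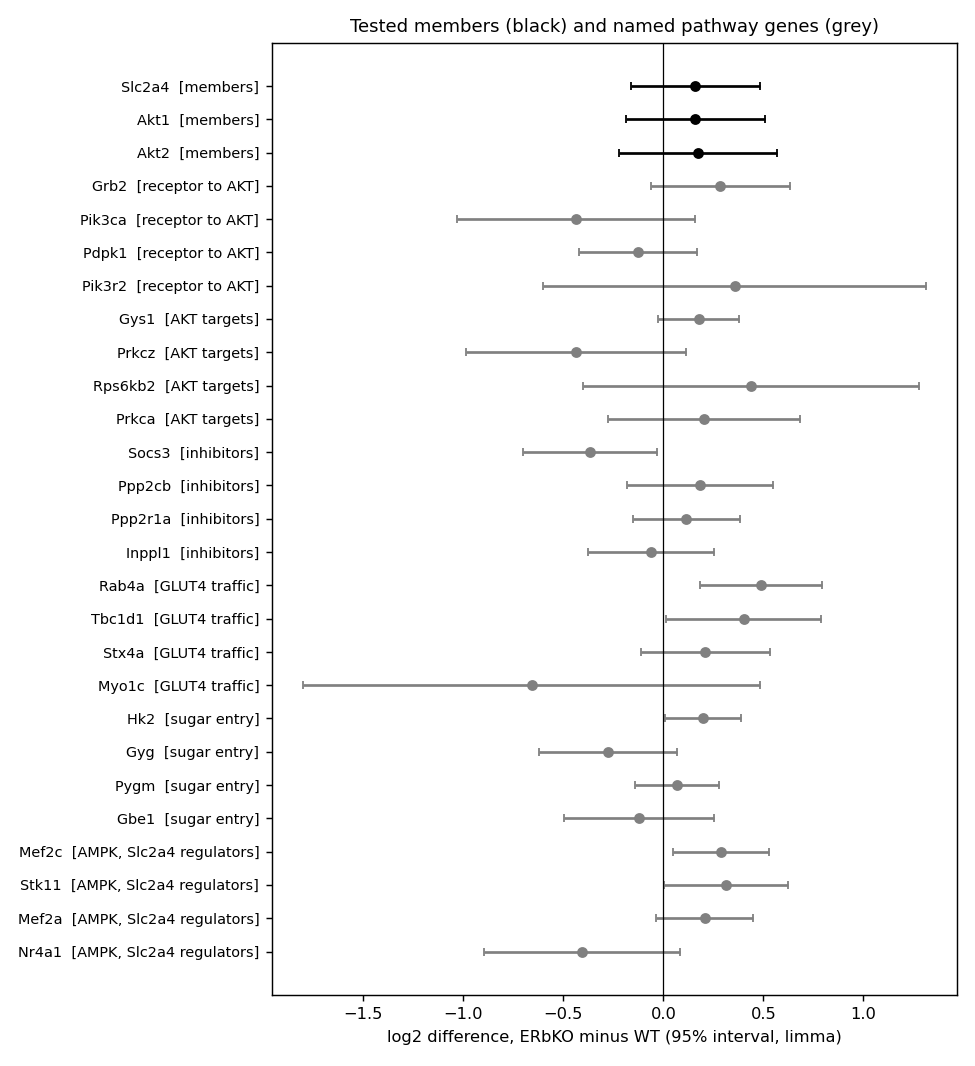
Log2 difference, ERbKO minus WT, with 95% intervals from limma for the 3 tested members (black) and the named pathway genes (grey), 1 row per gene with its list in brackets. The intervals of Slc2a4, Akt1 and Akt2 all include 0, and those of Socs3, Rab4a, Tbc1d1, Hk2, Mef2c and Stk11 do not, although each had a limma adjusted p of 0.923.

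The last list joined AMP-activated kinase subunits and the kinases above them with transcription factors and cofactors that act on Slc2a4 expression, and 9 of its 12 tested genes were higher in ERbKO, with a median of 0.12. Groups did not overlap for 5 of the 12 (41.7%), against 10.7% of all probe sets, and 0 passed the adjusted threshold (2, or 16.7%, at an unadjusted p under 0.05). The list was drawn up with earlier results of these data known, so its share cannot serve as a test. Mef2c, a factor that binds the Slc2a4 promoter, read 641.8, 619.2 and 625.8 in ERbKO and 527.5, 549.8 and 469.8 in WT (0.29 ± 0.11, SE; limma, adjusted p = 0.923). Of its 4 probe sets, 3 were higher in ERbKO without overlap (0.29, 0.28 and 0.24). The remaining one was lower without overlap (-0.21), so the probe sets of Mef2c disagreed in direction. Mef2a, which acts with it, read 631.1, 638.6 and 614.2 in ERbKO and 602.5, 506.2 and 529.2 in WT (0.21 ± 0.11, SE). An untested probe set of Mef2a, with readings of 5.0 to 15.2 around the floor, stood at -0.39. Stk11, the kinase LKB1 that switches on AMP-activated kinase, stood at 0.31 ± 0.14 and Nr4a1, an orphan nuclear receptor linked to glucose use in muscle, at -0.41 ± 0.22 (SE), both without overlap. For Nr4a1 the gap was narrow, with a highest ERbKO reading of 219.2 and a lowest WT reading of 219.7. Without WT replicate 1, which read 411 against 219.7 and 243.2 in the other WT arrays, Nr4a1 stood at -0.13. Nfic, singled out after its values were seen, was the fifth such gene (0.20).

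**Figure D4:**
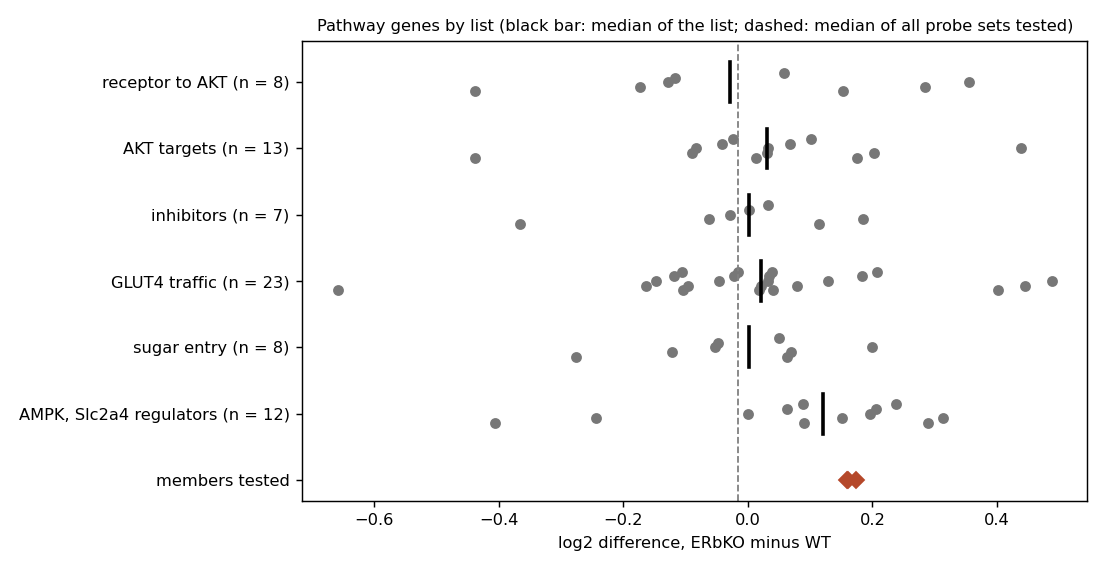
Log2 difference, ERbKO minus WT, of each tested pathway gene by list (grey points, 1 per gene), with the median of the list as a black bar, and the 3 tested members as red diamonds. The list medians run from -0.03 to 0.12, beside the dashed median of all probe sets at -0.02, and the members lie at 0.16 to 0.17.

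Fat cells also carry Slc2a4 and the insulin receptor. The 7 adipocyte markers on the array summed to 466.3 to 520.2 in ERbKO and 486.0 to 788.8 in WT, with ranges that overlapped, and 5 of them passed the filter level on at least 3 arrays. Adiponectin, Adipoq, singled out after its values were seen, had means of 88.7 in ERbKO and 178.4 in WT, also with overlap (limma, adjusted p = 0.923). Of the others above the filter level, Fabp4 had means of 70.4 in ERbKO and 92.3 in WT and Lipe 96.2 and 114.5. Lep had means of 182.4 and 192.9 and Retn of 42.1 and 43.1 in the same order. The part of adipocyte RNA in the Slc2a4 and Insr readings was not tested.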

How the data were processed

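Intensities on a linear scale, 1 per probe set and array, are the authors' deposited values. The software behind these values is one point not given in the sources used here. Trimmed at 2% on each side, every array had a mean of about 100.1. Gene names came from the array's annotation table, and a look-up by gene ID in RefSeq (10817 of 10833 probe sets with 1 symbol matched) changed 0 symbols. The 66 control probe sets were left out of the tests.

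A floor of 7.8, the 20th percentile over all arrays, replaced lower readings before log2 was taken. Probe sets above the median, 39.4, on at least 3 of 6 arrays were tested (6369). ERbKO minus WT was fitted with limma 3.58.1 in R 4.3.3 (eBayes, trend on), with two-sided p-values adjusted by Benjamini-Hochberg across those 6369. The median SE of a log2 difference was 0.179, and precision is limited by having 6 arrays. The steps were tested on simulated data. Figures used matplotlib 3.10.9 in Python 3.11.15.

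The genes and lists were chosen with earlier results of these data known. All member probe sets are named, with up to 4 genes of smallest p per pathway list and the genes most correlated with each tested member. Where a gene had several tested probe sets, the one of highest mean stood for it in the lists. Marker sums use the probe set of highest mean. Alternatives were 3 normalizations, 2 floors, 2 filters, 2 variance models, array weights, 2 blocks, the 4 arrays sharing a title prefix, and each array left out.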

Additional observations from a re-analysis of the deposited data

How the results depend on the processing

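Under the 19 alternatives, 0 member probe sets and 0 genes of each pathway list passed the adjusted threshold, and the differences of Slc2a4 (brighter probe set), Akt1 and Akt2 stayed above 0 in each. Over the whole array 1 probe set passed without the filter, 1 with adjacent title numbers as a replicate block, and 0 to 1 when single arrays were left out (1 without ERbKO replicate 1), namely Hoxd1, the fast myosin Myh4 and Tuba1a, none of them a member or a gene of the pathway lists. The number of probe sets with an unadjusted p below 0.05 was 334 of 6369 (5.24%). It was 619 of 12422 (4.98%) without the filter, 532 of 6369 (8.35%) with array weights, 512 of 5976 (8.57%) over the 4 arrays, 195 of 6226 (3.13%) without WT replicate 1 and 222 of 6224 (3.57%) without ERbKO replicate 3. Over all tested probe sets, deviations of arrays with adjacent title numbers from their group means correlated at -0.005, 0.035 and -0.003. Other combinations of an ERbKO and a WT array gave -0.0565 to 0.0665. Such a correlation over all probe sets cannot show whether single genes varied together in adjacent arrays. Myh4 and Actn3, picked after their values were seen, read highest on replicate 2 and lowest on replicate 3 in both groups. With adjacent title numbers as a block Slc2a4 stood at 0.16 (limma, adjusted p = 0.899). Without the filter the 5 dim member probe sets had adjusted p of 0.91 to 1.0, and the 95% interval of Slc2a1 ran from 0.27-fold to 2.41-fold. Over the 4 arrays sharing a title prefix, Pik3r2 (-0.376), Rps6kb2 (-0.0386) and Ppp2cb (-0.027) turned round. Among the untested members Insr turned to 0.0427, 0.0358 and 0.0559 with quantile, median and cyclic loess scaling, the dimmer Slc2a4 probe set to 0.0549, 0.0537 and 0.0595, and Slc2a1 to 0.249 without ERbKO replicate 1. The difference of Irs1 was 0 with the floor at the 40th percentile, which lies above all of its readings. Inppl1 turned with median scaling (0.00372), and Pygm with quantile normalization (-0.0723) and cyclic loess (-0.075). With single arrays left out Pik3r2 ran from -0.0936 to 0.662, Rps6kb2 from -0.036 to 0.825, Inppl1 from -0.178 to 0.0154, Pygm from -0.00113 to 0.137 and Gbe1 from -0.282 to 0.0298. The cause was not tested. Readings below the filter level limit what can be said of Slc2a1, Insr, Irs1 and Pik3r1.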

Other observations

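In the order of their sample titles, each ERbKO array follows a WT array, and the ratio of Slc2a4 intensity, ERbKO over WT, was 1.11, 1.11 and 1.13 in the 3 pairs so formed. Akt1 gave 1.27, 0.904 and 1.22 and Akt2 gave 1.29, 1.13 and 0.982 in the same pairs. The labels do not say that such arrays belong together.

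Several genes below the filter level were picked after their values were seen. Of the 6053 probe sets not tested, 9.35% had groups that did not overlap. Socs1, an inhibitor of cytokine and insulin signalling, read 19.3 to 30.4 in ERbKO and 30.6 to 50 in WT, without overlap. Slc2a2, the GLUT2 transporter of liver and pancreatic islets, read 12.5 to 14.0 in ERbKO and 3.2 to 9.0 in WT, without overlap and with WT readings around the floor of 7.8. Slc2a3, the neuronal GLUT3, read 16.5 to 26.6 in ERbKO and 5.9 to 21.2 in WT, with overlap. Esr1, the estrogen receptor alpha gene, read 8.7 to 10.9 in ERbKO and 11.3 to 26.3 in WT, without overlap. Its ERbKO readings lay just above the floor of 7.8. For both Esr1 and Socs1 the gap between the groups was narrow. None of these genes was tested.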
